A study of Mus musculus with 29 samples.

Results

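Mouse fibroblasts of the 3T9 type, in which the transcription factor Myc can be switched on by a drug, were compared after 16 h of the drug and without it. The comparison rests on 8 of the 29 libraries of the series, 4 labelled OHT_16h and 4 labelled OHT_0h, chosen by their titles as total RNA of these cells at those times. All 8 came from fibroblasts of E13.5 mouse embryos of mixed strain, with both alleles of c-myc floxed, infected in culture with MycER. OHT_16h cells were given 400 nM 4-hydroxytamoxifen (OHT) for 16 h, and OHT_0h cells were given ethanol, the solvent of OHT. Cells treated with the same dose for 4 h and 8 h (OHT_4h and OHT_8h, n = 4 each) shared the fit and served to compare 16 h with earlier times. The nascent RNA of the same cells (2 libraries) and the B cell and tumour samples (11 libraries) were not used here. Ribosomal RNA was removed before sequencing, and each library is given as 1 FPKM value per gene (fragments scaled to gene length and to library size) for 21675 genes. No library of cells without MycER but with OHT was analysed here, so effects of Myc and of the drug itself cannot be told apart. The labels do not say that the 4 libraries of a time came from separate cultures, so p-values measure only the spread between these libraries, which may be technical.

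Myc binds DNA as a pair with Max at short sites called E-boxes, most often CACGTG, and is known for raising genes of ribosome production, nucleotide synthesis and metabolism and for lowering genes that hold back the cell cycle or serve adhesion. MycER joins Myc to the hormone-binding part of the oestrogen receptor. The fusion is held inactive in the cytoplasm by chaperones until OHT binds that part, after which it enters the nucleus. Fibroblasts are the connective tissue cells that make collagen and other matrix, and they hold their shape by contractile fibres and integrins.

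The Myc gene itself was lower with OHT. In the OHT_0h libraries it was at 24.4, 29.7, 20.3 and 23.0 FPKM, and in the OHT_16h libraries at 11.7, 9.31, 9.78 and 8.35 FPKM. No OHT_16h library reached the lowest OHT_0h library. The log2 fold change was -1.27 (SE 0.19, adjusted p = 0.00022, limma with Benjamini-Hochberg adjustment over all genes tested). The row of Myc cannot tell reads of the cell's own gene from reads of the fusion. Max, with which Myc pairs, did not pass, with 42.1 ± 9.64 against 41.4 ± 7.62 FPKM (log2 fold change 0.02, at an adjusted p of 0.971). Here and in what follows such a pair gives the mean and SD of OHT_16h first and of OHT_0h second (n = 4 each), and libraries are listed in the order of their numbers. Mycn, the related Myc gene of embryonic and neural tissue, lay between 0.317 and 0.559 FPKM in all 8 libraries and was not tested. Esr1, the oestrogen receptor, did not pass either, with 5.58 ± 1.45 against 7.48 ± 1.48 FPKM (log2 fold change -0.41, at an adjusted p of 0.221). Whether its row also holds reads of the fusion is not given in the sources used here.

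The fibroblast label was checked on marker genes. Of 12 fibroblast markers 10 were tested, and the defining Col1a1 (95.1 ± 22.3 against 98.6 ± 5.22 FPKM) and Vim (114 ± 6.51 against 115 ± 7.07 FPKM) were among the highest genes, while Thy1 and Lum were under the filter. Of the 10 tested, 2 were lower at 16 h and 0 higher by limma. These 2 were Pdgfra (log2 fold change -0.90, adjusted p = 0.0105) and Dcn (log2 fold change -1.06, adjusted p = 0.0115). The 7 endothelial markers were under 1 FPKM in all 8 libraries. The summed haematopoietic markers lay between 9.57 and 20.4 FPKM at 0 h and between 6.67 and 13.9 FPKM at 16 h, and the highest of these sums is OHT_0h library 4. The macrophage gene Emr1 was at 2.43 FPKM in OHT_0h library 4 and at 0 to 0.131 FPKM in the other 7. The part of such cells in the results was not tested. The summed epithelial markers were at 3.29 to 3.79 FPKM at 0 h and at 1.35 to 3.56 FPKM at 16 h, and the muscle markers at 9.48 to 10.8 and 5.16 to 10.4 FPKM. No marker of the 7 lists was at 0 in all 8 libraries. In bulk RNA, fewer cells of a type and less RNA per cell cannot be told apart.

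The OHT_16h libraries did not share 1 scale. Relative to the mean of the OHT_0h libraries, the median gene was shifted on the log2 scale by 0.11 in OHT_16h library 1, by -0.35 in library 2, by -0.02 in library 3 and by -0.33 in library 4, while the OHT_0h libraries lay between -0.03 and 0.04. The downward shift at 16 h is thus carried by libraries 2 and 4. As log2 medians, OHT_16h was at 4.05 ± 0.28 and OHT_0h at 4.23 ± 0.04 (n = 4 each), a difference of -0.18 with an exact permutation p of 0.343, two-sided (the smallest p this design allows is 0.0286). Libraries 2 and 4 also listed more genes at 0 (1173 and 1943) than OHT_16h libraries 1 and 3 (608 and 617) and the OHT_0h libraries (539 to 1051). Since the shift touches most genes, counts over all genes are given both on the deposited FPKM and after median ratio scaling. That scaling divides each library by its median ratio to the mean library. A fold change given alone is on the deposited FPKM unless stated. Single libraries were left out on the deposited FPKM only. A call said to be lost without a library is thus lost on that scale, and this was not tested after scaling.

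**Figure D1:**
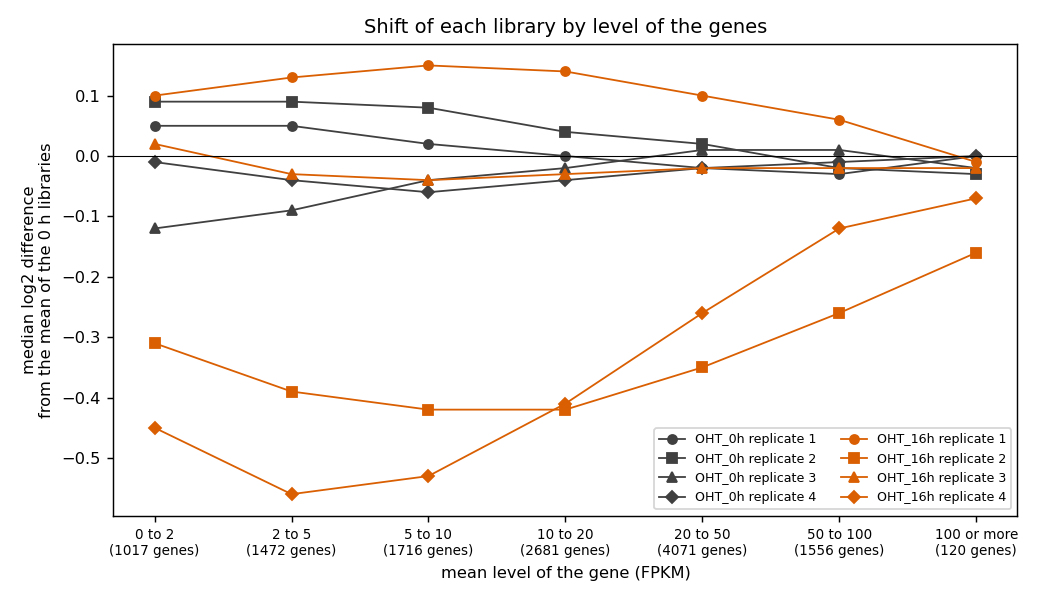
Median log2 difference from the mean of the OHT_0h libraries (vertical axis) for genes grouped by mean FPKM over the 8 libraries (horizontal axis), 1 line per library. OHT_16h libraries 2 and 4 lie below the other libraries at every level, at -0.31 to -0.56 for genes under 20 FPKM and at -0.16 and -0.07 for genes of 100 FPKM or more.

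The range of values was narrow at the top. The highest mean over the 8 libraries was 156 FPKM, and 120 genes reached 100 FPKM. From 2 FPKM up, fold changes narrowed with level as well (SD across genes below 2 FPKM 0.4). Their SD across genes was 0.47 on the log2 scale for genes of 2 to 5 FPKM, 0.28 for 20 to 50 FPKM, 0.17 for 50 to 100 FPKM and 0.10 for the 120 genes at 100 FPKM or more, of which 0% were called on both scales. After median ratio scaling the median gene stood at -0.04 for 2 to 5 FPKM, at 0.13 for 50 to 100 FPKM and at 0.15 for 100 FPKM or more, which is the level to hold the medians of abundant gene lists against. What set the top of the values is not given in the sources used here.

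A total of 12633 genes with at least 1 FPKM in 4 or more of the 8 libraries were tested. On the deposited FPKM 215 genes (1.7%) were higher and 1004 (7.95%) lower at 16 h, 9.65% in all. After median ratio scaling 960 (7.6%) were higher and 944 (7.47%) lower, 15.1% in all. After cyclic loess, which levels the shift at each expression level, 938 (7.42%) were higher and 1038 (8.22%) lower. The share of calls that were higher thus moved from 17.6% to 50.4%. Both scales called 215 genes higher (1.7%) and 812 lower (6.43%), and 0 genes in opposite directions. Scaling divides each library by 1 factor and moved the median log2 fold change from -0.14 to 0.05. The 215 are thus all the genes higher on the deposited FPKM, and the 2 scales are no independent support for each other. Of these, 69 rose and 163 fell at least 2-fold on both scales. The libraries of the 2 groups did not overlap for 1759 genes (13.9%) on the deposited FPKM. Genes called higher on both scales had a median of 9.43 FPKM at 0 h and genes called lower 13.3 FPKM, against 18.4 FPKM for all genes tested. The count of lower genes on the deposited FPKM depended on single libraries. It was 1890 without OHT_16h library 1, 440 without library 2 and 485 without library 4, 668 and 576 without OHT_0h library 1 and 2, and 188 lower beside 366 higher genes without OHT_16h libraries 2 and 4 together.

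**Figure D2:**
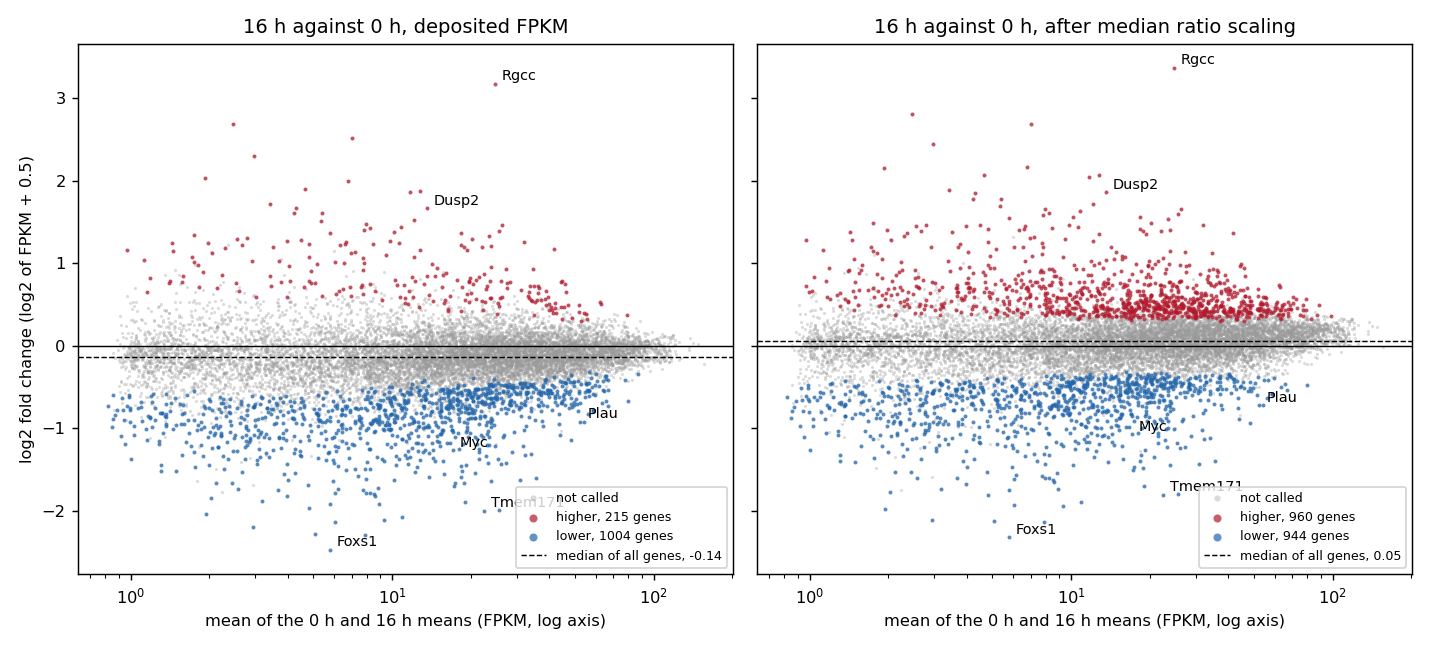
Log2 fold change of 16 h against 0 h (vertical axis) by mean FPKM (horizontal log axis) for 12633 genes, on deposited FPKM (left) and after median ratio scaling (right), with called genes in colour. On the deposited FPKM 1004 lower genes face 215 higher ones around a median of -0.14, and after scaling 944 face 960 around a median of 0.05. In both panels the cloud narrows to the right.

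The largest rise was that of Rgcc, a regulator of the cell cycle first found as a gene responsive to complement. It was at 4.56, 4.37, 4.21 and 4.99 FPKM in the OHT_0h libraries and at 42.7, 41.1, 43.6 and 52.3 FPKM in the OHT_16h libraries. Every OHT_16h library was over 8 times the highest OHT_0h library (log2 fold change 3.17, SE 0.14, adjusted p = 7.63e-12, and 3.36 after scaling). Ankrd6, or diversin, an adaptor protein of the Wnt pathway, was at 1.91, 1.80, 1.92 and 1.35 FPKM at 0 h and at 15.0, 10.5, 13.3 and 10.6 FPKM at 16 h (log2 fold change 2.51, adjusted p = 4.11e-07). Ppm1j, a protein phosphatase, went from 0.705, 0.756, 0.675 and 0.497 FPKM to 6.91, 3.82, 5.48 and 4.88 FPKM (log2 fold change 2.30). Its libraries did not overlap, as the rule for naming the largest rises demanded. At under 1 FPKM the pseudocount of 0.5 FPKM understates the change. Cited1, a cofactor that binds the p300 and CBP coactivators, was at 3.06, 2.16, 2.44 and 1.92 FPKM and then at 15.7, 8.24, 12.0 and 9.00 FPKM (log2 fold change 1.99).

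The other large rises held several signalling genes. Dusp2, a nuclear phosphatase that switches off MAP kinases, was at 6.13, 5.93, 6.84 and 6.14 FPKM at 0 h and 22.4, 20.8, 20.3 and 20.1 FPKM at 16 h (log2 fold change 1.66, SE 0.12, adjusted p = 4.94e-08). Fzd9, a receptor for Wnt ligands, was at 5.43, 4.48, 5.36 and 4.80 FPKM and at 27.5, 13.8, 25.4 and 15.6 FPKM (log2 fold change 1.88). Its OHT_16h libraries 2 and 4 were the lower pair, as they were for the median gene. P2ry2 (log2 fold change 1.67), a receptor for extracellular ATP and UTP, and Adora2b (1.61), a receptor for adenosine, rose as well. Nrtn (1.90) encodes neurturin, a ligand of the GDNF family, and Hapln4 (1.72) a link protein of hyaluronan in the matrix. Gls2 (1.53) is a glutaminase, which turns glutamine into glutamate, and was at 18.3 ± 5.66 against 5.96 ± 1.43 FPKM. Reep6 (1.85) shapes membranes of the endoplasmic reticulum. The 2 transcription factors among them were Bhlhe41 (8.40 ± 1.85 against 2.40 ± 0.325 FPKM, log2 fold change 1.60), a repressor of the circadian clock also called Dec2, and Batf3 (8.19 ± 2.73 against 2.48 ± 0.562 FPKM, 1.51), a partner of Jun proteins. These 14 genes are the largest rises that were called on both scales, did not overlap between groups and reached 5 FPKM at 16 h. After median ratio scaling their log2 fold changes were 1.69 to 3.36.

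RefSeq gives promoter windows (250 bases before to 50 after a gene's start, assembly GRCm38.p6, not the mm9 build to which reads were aligned) for 11 of the 14 rises. CACGTG, which reads the same on both strands, lay in the window of 5 of them (45.5%), Fzd9, P2ry2, Dusp2, Bhlhe41 and Batf3, and of 1 of the 8 largest falls with a window (12.5%). The 250 bases before the start are printed for the 4 in which the match lies nearest to it, 5′ to 3′ on the strand of the gene, with CACGTG in capitals.
P2ry2: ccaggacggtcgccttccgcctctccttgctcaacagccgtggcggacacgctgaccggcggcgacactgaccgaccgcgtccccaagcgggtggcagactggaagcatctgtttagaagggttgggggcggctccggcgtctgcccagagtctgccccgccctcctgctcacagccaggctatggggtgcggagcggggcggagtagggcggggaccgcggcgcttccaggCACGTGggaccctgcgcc
Fzd9: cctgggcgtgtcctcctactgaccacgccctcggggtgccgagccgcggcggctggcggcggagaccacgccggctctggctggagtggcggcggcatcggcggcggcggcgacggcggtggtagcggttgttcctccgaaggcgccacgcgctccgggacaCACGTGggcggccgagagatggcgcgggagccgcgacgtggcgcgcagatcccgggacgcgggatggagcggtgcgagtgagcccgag
Dusp2: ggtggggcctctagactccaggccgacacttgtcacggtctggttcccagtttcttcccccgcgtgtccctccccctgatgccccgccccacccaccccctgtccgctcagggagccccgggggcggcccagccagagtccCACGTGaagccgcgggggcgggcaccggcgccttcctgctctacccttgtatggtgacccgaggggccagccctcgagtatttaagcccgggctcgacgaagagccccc
Bhlhe41: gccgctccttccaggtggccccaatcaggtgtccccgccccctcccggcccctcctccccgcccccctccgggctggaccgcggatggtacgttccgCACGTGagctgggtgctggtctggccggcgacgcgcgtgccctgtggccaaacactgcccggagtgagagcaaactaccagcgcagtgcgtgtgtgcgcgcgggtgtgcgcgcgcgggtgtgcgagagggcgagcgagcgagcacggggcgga
These are chr7:101011999-101012248 and chr5:135251048-135251297 on the minus strand, chr2:127335909-127336158 on the plus strand and chr6:145865421-145865670 on the minus strand. The first base of the match lies 18, 88, 109 and 153 bases before the start, in that order, and in Batf3 247 bases before it. Over all genes called higher on both scales, CACGTG was in the windows of 22 of 155 genes with a window (14.2%), against 67 of 567 called lower (11.8%), 1067 of 9037 tested (11.8%) and 2349 of all 32851 windows of the table (7.15%). The last share counts single windows and the others count genes, some of which have several windows, so it is not a like measure. With CACGCG on either strand counted as well, a second form of the site, the shares were 38.7%, 23.6% and 29.3% for higher, lower and all tested genes. These are matches of letters, chosen genes were not tested against others, and no binding was measured here.

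Among the falls, Foxs1, a forkhead transcription factor, led. It was at 11.1, 9.42, 10.5 and 9.26 FPKM in the OHT_0h libraries and at 2.35, 1.08, 1.63 and 0.843 FPKM in the OHT_16h libraries (log2 fold change -2.48, SE 0.29, adjusted p = 2.91e-05, and -2.32 after scaling). Angptl4, a secreted inhibitor of lipoprotein lipase, went from 6.91, 11.0, 8.02 and 8.97 FPKM to 1.66, 0.989, 1.56 and 1.34 FPKM (log2 fold change -2.29). Tmem171, a membrane protein, had the highest starting level of the falls, 32.7, 33.1, 41.9 and 36.2 FPKM against 9.95, 9.24, 10.2 and 5.74 FPKM at 16 h (log2 fold change -1.81 after scaling, adjusted p = 2.78e-06). Groups did not overlap in any of the 3 genes, as the rule for naming the largest falls demanded.

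Regulators of division and of the clock were among the other falls. Ccng2, cyclin G2, which holds back the cell cycle, was at 27.7, 30.3, 29.6 and 32.5 FPKM and at 10.9, 5.16, 7.01 and 8.89 FPKM (log2 fold change -1.89). Btg2, an antiproliferative target of p53, was at 12.3, 11.9, 14.2 and 11.8 FPKM and at 3.98, 2.67, 3.95 and 2.71 FPKM (log2 fold change -1.78, adjusted p = 5.74e-06). By the same rule, both were lower in each OHT_16h library than in any OHT_0h library. Arntl, the clock activator also called Bmal1, was at 10.1, 8.98, 10.9 and 7.51 FPKM and at 3.13, 1.73, 2.59 and 1.31 FPKM (log2 fold change -1.92, adjusted p = 7.5e-05). Sema7a (-1.97) is a membrane-anchored semaphorin, Stx11 (-1.79) a protein of vesicle fusion, Nipal1 (-1.78) a magnesium transporter and Asb5 (-1.89) an adaptor of ubiquitin ligases. Fam214b (-1.82) completes the set. Gvin1 (-2.07), a large interferon-inducible GTPase, has near-identical copies in the genome, and Evi2a (-1.92) lies inside another gene, Nf1. How the authors counted such reads is not given in the sources used here, so these 2 are uncertain. Tgfb1i1 (-1.82, adjusted p = 0.00624), the focal adhesion protein Hic-5, was the only 1 of the 28 whose call was lost under an alternative, when OHT_16h libraries 2 and 4 were both left out (log2 fold change -1.31, adjusted p = 0.102). The other 27 kept theirs without those libraries, and all 28 without any single library and under each scaling that was run. With a filter of 5 FPKM, 25 of the 28 were tested and kept theirs.

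**Figure D3:**
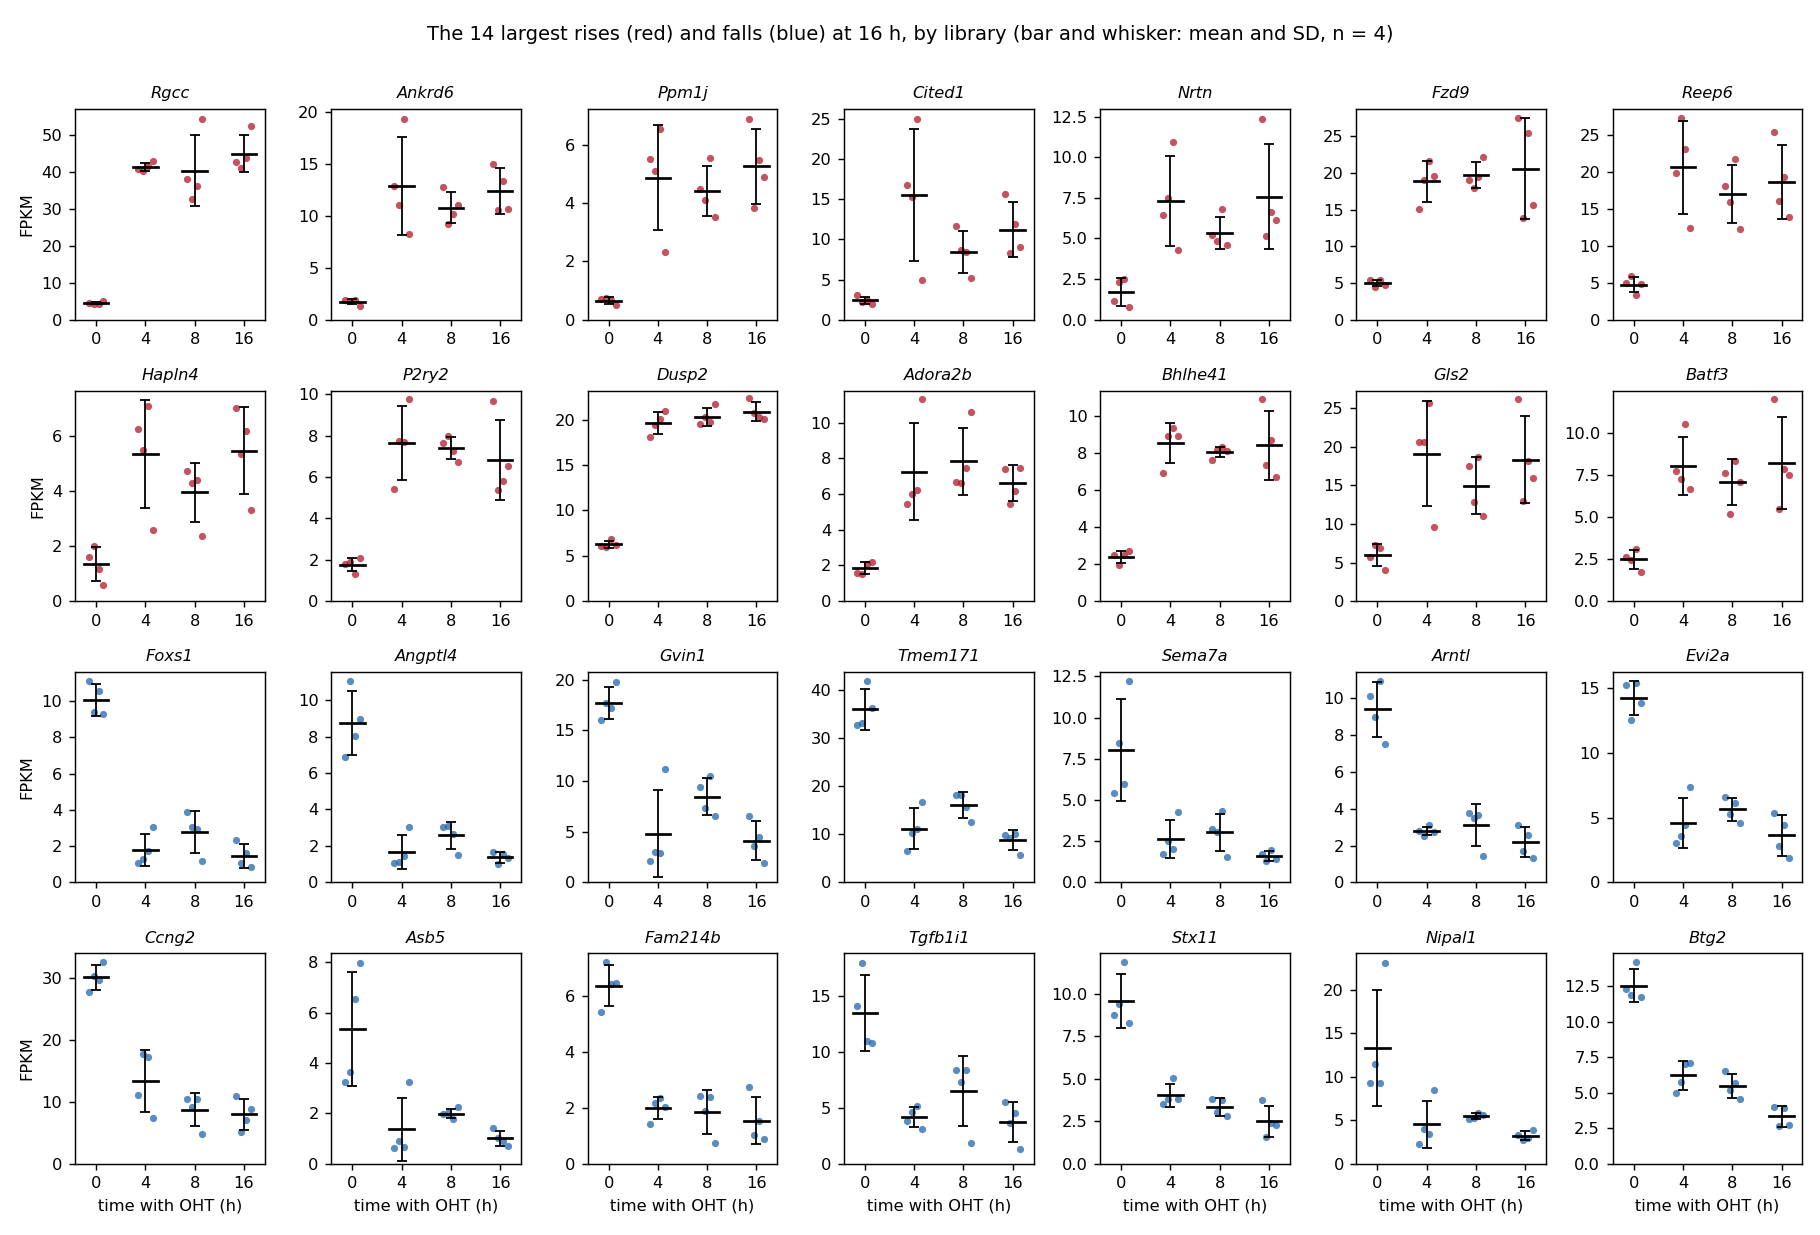
FPKM (vertical axes, from 0) of the 14 largest rises (red) and 14 largest falls (blue) at 0, 4, 8 and 16 h with OHT, 1 point per library with mean and SD (n = 4). In each panel the 16 h points lie apart from the 0 h points, as the rule that chose the genes demanded. Rgcc is at a mean of 41.4 FPKM already at 4 h, against 44.9 FPKM at 16 h.

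Few genes of ribosome production were called on the deposited FPKM. Nearly all lay above 0 after scaling, as most genes of 50 FPKM or more did. Of 49 nucleolar genes of ribosome biogenesis, 1 was higher and 0 lower on the deposited FPKM, and 8 were higher and 0 lower after scaling. Over all genes 7.6% were higher and 7.47% lower after scaling. The shares were 8.5% and 4.59% for genes of 20 to 50 FPKM, and 4.69% and 0.964% for genes of 50 to 100 FPKM. Whether the list differs from genes of like level was not tested. The list's median log2 fold change was 0.05 and 0.24 on the 2 scales, against -0.14 and 0.05 for all genes. After scaling 49 of the 49 lay above 0, as did 7370 of all 12633 genes. All genes of 50 to 100 FPKM, the range that holds the list's median level (61.2 FPKM), had a median of 0.13 and a 5th percentile of -0.15 on that scale. The member called on both scales was Ddx10, an RNA helicase (47.9, 48.1, 51.6 and 51.0 FPKM at 0 h, 58.6, 63.0, 59.6 and 66.9 FPKM at 16 h, log2 fold change 0.32, adjusted p = 0.0304). Its call was lost without OHT_0h library 1, 2 or 4 or OHT_16h library 2 or 4 (adjusted p 0.0533 to 0.119, log2 fold changes 0.28 to 0.33), although its groups did not overlap. After scaling Ncl, nucleolin (72.4 ± 16.5 against 62.4 ± 7.41 FPKM, log2 fold change 0.39), and Nop2 (105 ± 19.7 against 92.8 ± 4.90 FPKM, 0.36), which methylates ribosomal RNA, were also called. After cyclic loess 3 of the 49 were higher and 0 lower. Of 30 subunits and factors of RNA polymerases I and III, 1 was higher on the deposited FPKM and 5 after scaling, and 0 were lower. That 1 was Taf1c, a factor that recruits RNA polymerase I, with a log2 fold change of 0.71 (adjusted p = 0.0433) from 14.8, 14.7, 16.7 and 9.25 FPKM at 0 h to 29.8, 17.2, 27.7 and 18.0 FPKM at 16 h. That call was lost on the deposited FPKM without OHT_0h library 1, 2 or 4 or OHT_16h library 1 or 3 (adjusted p 0.0706 to 0.151, log2 fold changes 0.53 to 0.75). After scaling, with all libraries, its adjusted p was 0.000518 (limma). Of 40 cytosolic ribosomal proteins, 0 were called on either scale. Their median was -0.01 on the deposited FPKM and 0.19 after scaling at a median level of 94.4 FPKM. After scaling 40 of the 40 lay above 0. On that scale the 5th percentile of all genes was -0.15 at 50 to 100 FPKM and 0.01 at 100 FPKM or more. The list's most abundant member Rpl12 was at 143 ± 23.2 against 133 ± 7.02 FPKM. Ribosomal protein genes have many near-identical copies in the genome, so their values are uncertain. Of 35 mitochondrial ribosomal proteins 4 were higher after scaling only, of 33 translation factors 2, and of 22 aminoacyl-tRNA synthetases 0. On that scale 7.6% of all genes were higher, and 4.69% of those of 50 to 100 FPKM.

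Metabolic genes showed a similar split between scales, as all genes did (1.7% higher on the deposited FPKM and 7.6% after scaling). Of 25 genes of cholesterol synthesis and uptake, 0 were called on the deposited FPKM and 8 were higher and 0 lower after scaling. The list had the highest median of the 44 lists on each scale, 0.16 and 0.36, and 0.26 after cyclic loess, where 9 members were higher. Dhcr7, the last enzyme of the pathway, was at 20.1, 22.5, 23.5 and 16.1 FPKM at 0 h and at 42.8, 25.2, 37.6 and 21.7 FPKM at 16 h (log2 fold change 0.58 and 0.78 on the 2 scales). Lss (43.4 ± 9.11 against 31.5 ± 4.75 FPKM), which closes the sterol rings, Hmgcs1 (20.1 ± 3.16 against 16.1 ± 2.34 FPKM), an early enzyme, and Insig1 (67.5 ± 9.41 against 54.6 ± 5.98 FPKM), which restrains the pathway, were among the 8. These genes, like others called after scaling only, are named after their values were seen. Fdps, the list's most abundant member, was at 90.2 ± 6.49 against 86.8 ± 11.9 FPKM and did not pass.

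In amino acid transport, 2 of 30 genes were higher and 2 lower on the deposited FPKM, and 8 were higher and 0 lower after scaling. For this list and those below, 7.6% of all genes were higher and 7.47% lower after scaling. The 2 higher ones were called on both scales. Slc1a5, the glutamine transporter, was at 46.9, 46.8, 48.8 and 48.3 FPKM at 0 h and at 60.3, 61.9, 62.9 and 65.3 FPKM at 16 h, with all OHT_16h libraries above all OHT_0h libraries (log2 fold change 0.39 and 0.59, adjusted p = 0.00717 on the deposited FPKM). It kept its call without any single library. The glutaminase Gls2 was the other. In the lipid list of 22 genes, Dgat2, which makes triglyceride, rose from 20.5, 17.8, 19.3 and 15.6 FPKM to 56.9, 30.3, 57.0 and 39.3 FPKM (log2 fold change 1.26 and 1.46). Angptl4 fell, as did Plin2 (44.7 ± 6.15 against 68.4 ± 4.96 FPKM, log2 fold change -0.61), a coat protein of lipid droplets. After scaling 8 were higher and 2 lower, with Fasn (84.6 ± 6.89 against 69.6 ± 9.78 FPKM), the fatty acid synthase, among the higher. Of 39 genes of nucleotide and one-carbon synthesis, 0 were higher and 2 lower on the deposited FPKM and 5 were higher and 1 lower after scaling. Cad (58.7 ± 5.05 against 50.2 ± 4.13 FPKM, log2 fold change 0.42 after scaling), which starts pyrimidine synthesis, was among the 5. Polyamine synthesis (12 genes), oxidative phosphorylation (36), iron uptake (15) and the proteasome (29) had 0 calls on both scales. Of these, Odc1, the first enzyme of polyamine synthesis, was at 86.5 ± 7.42 against 93.1 ± 13.2 FPKM.

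Few genes of the cell division machinery were called. Of 39 DNA replication genes 0 were higher and 1 lower on the deposited FPKM, where 7.95% of all genes were lower, and 0 were called after scaling. Of 35 mitosis genes the counts were 0 higher and 2 lower, and 1 higher and 0 lower after scaling. Of 23 replication-dependent histones 0 were called. Among 27 genes of the G1 phase, 4 were lower on both scales (6.43% of all genes were). These were the kinase inhibitors Cdkn2b, Cdkn2c and Cdkn2d and the retinoblastoma relative Rbl1, which restrain the cycle. The other kinase inhibitors and retinoblastoma relatives tested were not called. Cdkn2d was at 12.3, 11.0, 16.4 and 10.5 FPKM and at 8.48, 3.61, 6.68 and 5.59 FPKM, with no overlap (log2 fold change -1.02 and -0.83), and lost its call without OHT_0h library 3 or OHT_16h library 2 (adjusted p 0.054 to 0.0684, log2 fold changes -0.89 to -0.81). Cdkn2c (16.9 ± 2.25 against 27.2 ± 3.56 FPKM) lost it without OHT_16h library 2 (adjusted p = 0.055, log2 fold change -0.58), Rbl1 (12.7 ± 1.75 against 20.0 ± 3.24 FPKM) without OHT_0h library 2 (adjusted p = 0.0545, log2 fold change -0.55) and Cdkn2b (32.0 ± 9.40 against 47.2 ± 6.36 FPKM) without OHT_0h library 1, 2 or 3 or OHT_16h library 2 or 4 (adjusted p 0.0805 to 0.149, log2 fold changes -0.59 to -0.45). After scaling Ccnd2 (22.4 ± 2.07 against 17.7 ± 3.33 FPKM) and Ccne1 (55.7 ± 7.42 against 46.7 ± 4.26 FPKM), the cyclins D2 and E1, and E2f2 (11.9 ± 3.30 against 9.06 ± 0.467 FPKM) were higher.

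Of 23 genes of the p53 pathway 4 were lower on both scales (6.43% of all genes were) and 0 higher, and after scaling alone 5 were lower and 3 higher, with a median of 0.01. Polk and Fas, among the 4, lost their calls without 4 and 6 single libraries (adjusted p 0.0568 to 0.0828, log2 fold changes -0.65 to -0.58 for Polk and adjusted p 0.0569 to 0.152, log2 fold changes -0.83 to -0.64 for Fas). Beside Btg2, Gadd45a, a stress gene that slows the cycle, was at 23.1, 22.8, 26.4 and 29.6 FPKM and at 15.8, 9.23, 14.3 and 13.4 FPKM (log2 fold change -0.94 and -0.75). In the Bcl2 family, 2 of 12 were lower on both scales. Bcl2l1, which encodes the survival protein Bcl-xL, was at 21.3, 20.1, 18.7 and 18.0 FPKM at 0 h and at 14.3, 9.46, 13.1 and 8.38 FPKM at 16 h (log2 fold change -0.79 and -0.60). Bad (22.1 ± 5.40 against 33.7 ± 6.26 FPKM), which promotes cell death, was lower too, but lost its call without OHT_0h library 1 or 3 or OHT_16h library 2 or 4 (adjusted p 0.0663 to 0.101, log2 fold changes -0.59 to -0.50). Of 20 genes of the Forkhead O factors and quiescence 5 were lower on both scales and 0 higher, and after scaling alone 5 were lower and 2 higher. Irs2 and Arrdc3, among the 5, lost their calls without 3 and 4 single libraries (adjusted p 0.0608 to 0.0674, log2 fold changes -0.97 to -0.81 for Irs2 and adjusted p 0.0693 to 0.0912, log2 fold changes -0.67 to -0.60 for Arrdc3). Ccng2 led the 5, and Klhl24 was at 3.10 ± 0.629 against 8.79 ± 0.863 FPKM (log2 fold change -1.38 and -1.20).

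Among the 11 tested genes of the Myc and Max network, 3 were lower and 1 higher on both scales (6.43% and 1.7% of all genes). Mxd4 and Mxd3 pair with Max and repress, against Myc. Mxd4 was at 41.5, 55.6, 42.7 and 34.1 FPKM at 0 h and at 29.0, 21.9, 22.3 and 21.1 FPKM at 16 h (log2 fold change -0.86 and -0.66). Mxd3 was at 22.7 ± 5.17 against 37.0 ± 2.79 FPKM (log2 fold change -0.71 and -0.52) and lost its call without OHT_16h library 4 (adjusted p = 0.053, log2 fold change -0.58). Mxi1, another repressor of that kind, moved the other way (18.7 ± 3.43 against 12.8 ± 1.33 FPKM, adjusted p = 0.0343), but its groups overlapped. Its call on the deposited FPKM was lost without OHT_0h library 1, 2 or 4 or OHT_16h library 1, 3 or 4 (adjusted p 0.0618 to 0.1, log2 fold changes 0.43 to 0.53). After scaling, with all libraries, its adjusted p was 0.000782 (limma). Of 16 clock genes, 2 were higher and 3 lower on both scales. The activator Arntl fell while its repressor Nr1d1, or Rev-erb alpha, was higher (18.3, 19.8, 15.1 and 10.5 FPKM at 0 h, 47.6, 27.2, 32.9 and 20.2 FPKM at 16 h, log2 fold change 0.96 and 1.15). The call of Nr1d1 on the deposited FPKM was lost without OHT_0h library 3 or 4 or OHT_16h library 1, 2 or 3 (adjusted p 0.0544 to 0.0835, log2 fold changes 0.74 to 1.01), with no overlap between groups. Bhlhe41 rose, Nfil3 (17.1 ± 5.26 against 30.6 ± 1.85 FPKM) fell, and so did Per2 (2.05 ± 0.533 against 5.47 ± 0.946 FPKM, log2 fold change -1.24), whose call but not direction was lost without OHT_16h library 2 (adjusted p = 0.071, log2 fold change -1.08).

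Immediate early genes and the feedback of MAP kinases had the most members called on both scales of the 44 lists. Of 27 genes 11 were lower and 2 higher on both scales (6.43% and 1.7% of all genes), and the median log2 fold change was -0.59 and -0.39. Dusp6, a phosphatase that restrains ERK, was at 35.5, 41.5, 33.4 and 50.1 FPKM at 0 h and at 15.5, 11.8, 14.8 and 16.1 FPKM at 16 h (log2 fold change -1.42 and -1.23, adjusted p = 4.36e-05). Ier3 (30.0 ± 4.63 against 66.5 ± 9.25 FPKM), Dusp1 (19.6 ± 5.30 against 48.5 ± 6.00 FPKM) and Fos (6.70, 4.91, 3.35 and 4.82 FPKM, then 1.64, 1.52, 1.60 and 1.88 FPKM) were lower as well. Fos is a transcription factor that growth signals induce within minutes. Against them Dusp2 and Spry1 rose. Spry1, an inhibitor of receptor signalling, was at 7.56, 6.70, 7.08 and 9.23 FPKM and at 21.3, 14.8, 20.7 and 14.6 FPKM (log2 fold change 1.16 and 1.35).

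Growth factors and their receptors gave 9 of 31 lower and 0 higher on both scales (6.43% and 1.7% of all genes), with medians of -0.49 and -0.29. Ereg, epiregulin, a ligand of the EGF receptor, was at 35.6, 34.6, 37.0 and 51.1 FPKM and at 19.2, 17.0, 17.8 and 20.8 FPKM (log2 fold change -1.05 and -0.85). Fgf2 (2.15 ± 0.306 against 5.24 ± 1.25 FPKM), a fibroblast growth factor, fell. Pdgfra (3.59 ± 1.02 against 7.03 ± 0.970 FPKM), a PDGF receptor and fibroblast marker, lost its call without OHT_16h library 2 (adjusted p = 0.0532, log2 fold change -0.76). In the TGF-beta and BMP pathway, 7 of 32 were lower and 0 higher on both scales. Inhba, the subunit of activin A, was at 48.1, 63.6, 50.2 and 76.5 FPKM at 0 h and at 34.8, 26.0, 32.0 and 19.4 FPKM at 16 h (log2 fold change -1.08 and -0.88), and its antagonist Fst, follistatin, fell from 11.7, 12.7, 13.4 and 15.2 FPKM to 7.65, 5.06, 8.07 and 5.12 FPKM (log2 fold change -0.82 after scaling). Of 19 Notch and Wnt genes 4 were lower and 0 higher on both scales, but after scaling 5 were lower and 4 higher, with a median of -0.08. Hes1, a repressor downstream of Notch, led the lower ones (20.6, 18.9, 20.2 and 19.3 FPKM, then 9.82, 5.57, 8.80 and 7.23 FPKM, log2 fold change -1.30 and -1.11).

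Contractile and matrix genes fell in part. Of 27 targets of YAP and SRF, which respond to tension in the cell, 7 were lower and 0 higher on both scales, on which 6.43% of all genes were lower and 1.7% higher. Ankrd1 was at 53.1, 62.5, 52.4 and 46.1 FPKM in the OHT_0h libraries and at 22.6, 17.2, 18.7 and 12.1 FPKM in the OHT_16h libraries (log2 fold change -1.60 and -1.40, adjusted p = 9.32e-05). Ctgf, a matrix-associated growth regulator, was at 78.0, 67.5, 72.8 and 80.7 FPKM and at 48.3, 38.0, 43.4 and 42.2 FPKM, and Actg2 (2.85 ± 0.677 against 8.35 ± 2.37 FPKM) is a smooth muscle actin. Csrp1 (48.5 ± 7.27 against 79.0 ± 10.5 FPKM), a protein of actin bundles, fell also. Of 34 collagens and other matrix genes 7 were lower and 0 higher on both scales, yet the list's median (-0.25 and -0.05) was near that of all genes. The lower ones included Col8a1 (11.2 ± 2.08 against 19.6 ± 1.91 FPKM) and decorin, Dcn (5.87, 2.37, 1.73 and 2.46 FPKM, then 1.56, 1.01, 0.959 and 0.909 FPKM), whereas the abundant Col1a1 was not called (log2 fold change -0.08 and 0.12). Of 26 metalloproteases and their inhibitors, 7 were lower and 0 higher on both scales. Plau, urokinase, which activates plasmin, was at 75.4, 65.7, 62.0 and 68.1 FPKM and at 47.5, 24.8, 46.0 and 29.0 FPKM (log2 fold change -0.92 and -0.72), and Adamts4 (1.10 ± 0.517 against 3.40 ± 0.346 FPKM), an aggrecanase, fell. Of 22 integrin and adhesion genes 5 were lower and 0 higher, among them Itga2 (3.19, 3.64, 3.19 and 5.80 FPKM, then 1.49, 0.652, 1.03 and 0.515 FPKM), the collagen-binding alpha 2 chain, and Itgb3 (4.89 ± 1.88 against 11.2 ± 1.18 FPKM).

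Chemokines, cytokines and their receptors had the lowest median of the 44 lists on each scale, -0.68 and -0.50, with 10 of 28 lower and 0 higher on both (6.43% and 1.7% of all genes). Lif, leukaemia inhibitory factor, was at 33.9, 31.1, 27.4 and 21.7 FPKM at 0 h and at 13.9, 6.42, 12.4 and 4.63 FPKM at 16 h (log2 fold change -1.67 and -1.48). Tslp (0.335 ± 0.0923 against 1.67 ± 0.244 FPKM), Ccl7 (13.0 ± 4.55 against 29.2 ± 4.56 FPKM) and Ptgs2 (50.1 ± 7.41 against 83.2 ± 5.54 FPKM), which makes prostaglandins, were lower too. Of 17 interferon-stimulated genes 5 were lower and 0 higher on both scales (medians -0.51 and -0.34). Ddx58, the viral RNA sensor RIG-I, was at 6.94, 6.65, 5.30 and 5.17 FPKM and at 2.11, 1.68, 1.98 and 1.14 FPKM (log2 fold change -1.56 and -1.39), and Irf1 (13.6 ± 2.98 against 25.5 ± 4.15 FPKM) and Parp9 (2.95 ± 0.522 against 6.13 ± 0.321 FPKM) fell with it. Of 14 genes of MHC class I presentation only Erap1 (12.3 ± 1.97 against 20.6 ± 3.41 FPKM) was lower on both scales, a share near that of all genes (6.43%). These lists hold genes that immune cells express strongly. The sums of the haematopoietic markers overlapped between the groups, only Csf1r and Cd68 of 8 passed the filter, and Cd68 was at 6.33 ± 2.61 against 7.78 ± 1.75 FPKM and not called. Their part in the fall of the cytokine genes was not tested.

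**Figure D4:**
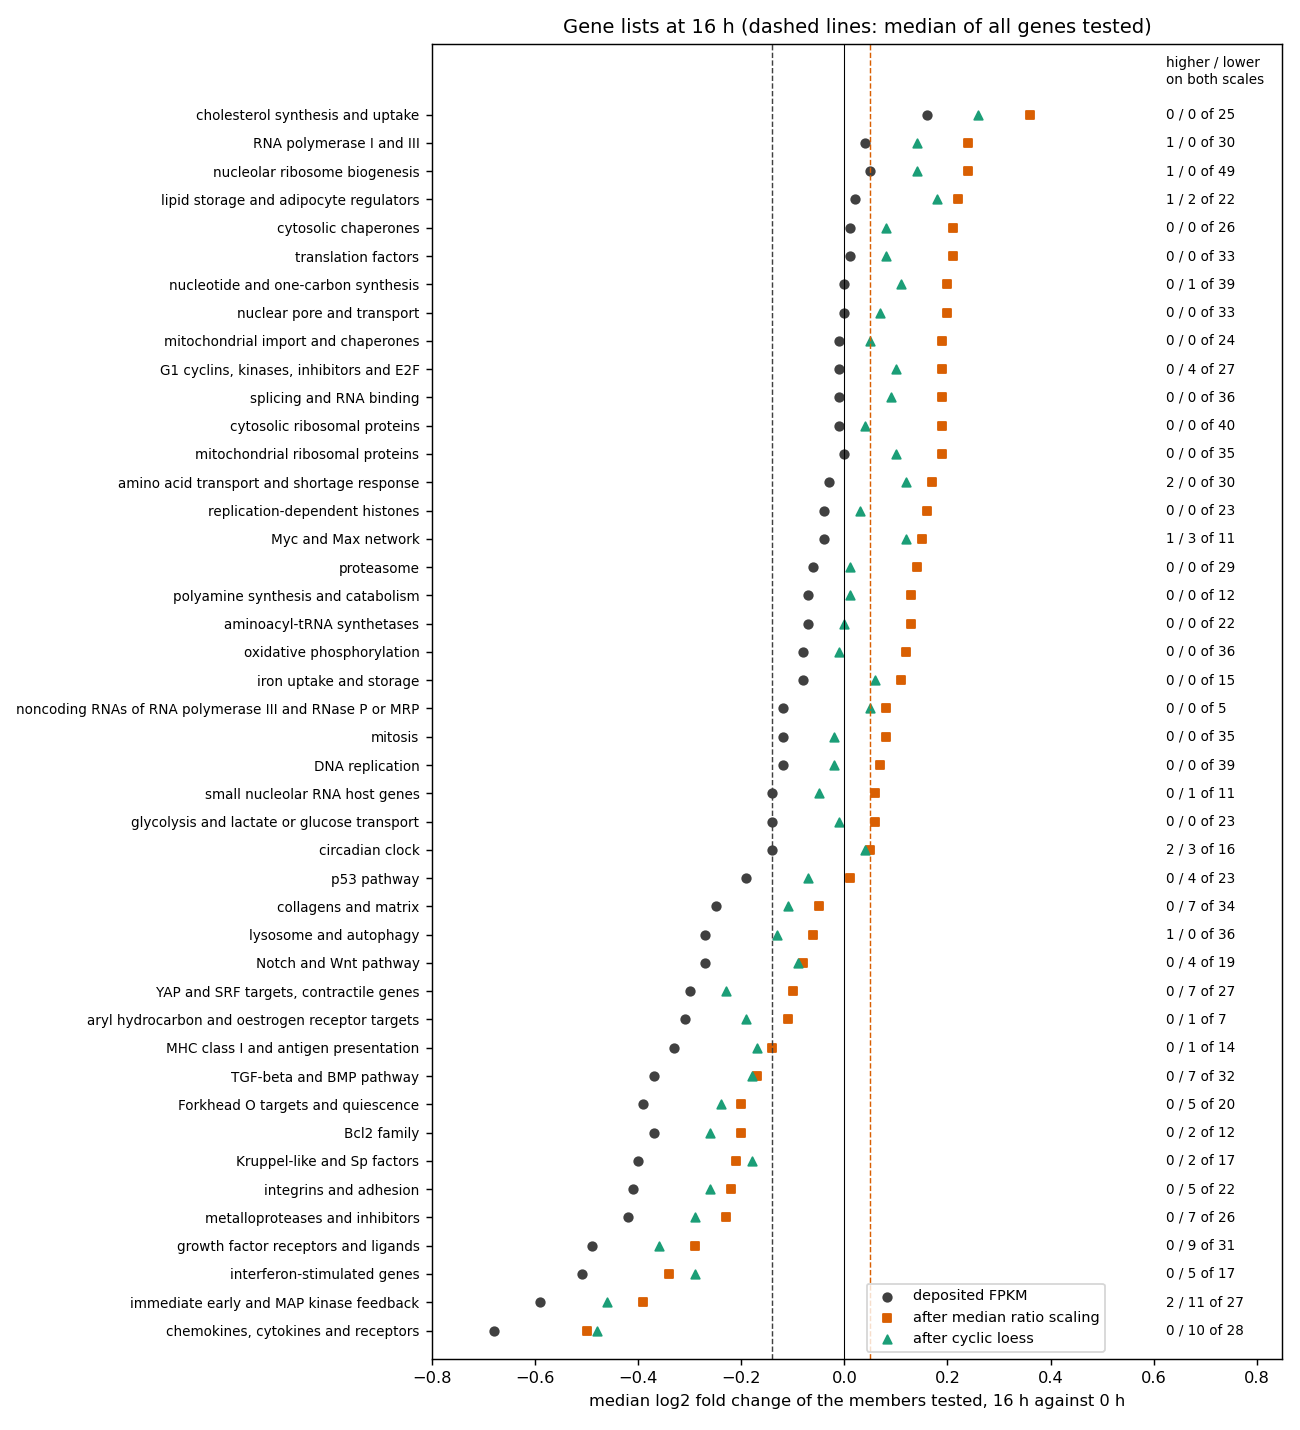
Median log2 fold change of the tested members of 44 gene lists (horizontal axis) on deposited FPKM, after median ratio scaling and after cyclic loess, with the number of members higher and lower on both scales. The lists run from cholesterol synthesis (median 0.16, 0.36 and 0.26) down to chemokines and cytokines (-0.68, -0.50 and -0.48), and the spread between lists is larger than that between scalings.

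Some marker genes of other tissues moved as well. Tubb3, a tubulin of neurons that is also present in other cells, rose from 29.6, 34.1, 33.9 and 38.6 FPKM to 63.0, 44.1, 62.5 and 60.9 FPKM (log2 fold change 0.74 and 0.94, adjusted p = 0.00079), with no overlap. The other 2 tested neural markers did not rise. Map2 was at 2.62 ± 0.822 against 4.13 ± 0.557 FPKM, lower after scaling only (log2 fold change -0.43), and Nes at 30.5 ± 5.99 against 33.0 ± 2.66 FPKM, not called. Sox2, Sox10 and Gfap stayed between 0 and 1.11 FPKM. Nanog, a stem cell gene with near-identical copies in the genome and so uncertain, was at 4.83 ± 1.05 against 5.09 ± 0.710 FPKM, while the other 4 pluripotency and germ cell markers were under 1 FPKM in all libraries. Of 36 lysosome and autophagy genes 1 was higher on both scales, Gusb (23.5 ± 2.92 against 16.0 ± 0.719 FPKM), a lysosomal hydrolase (log2 fold change 0.53). Its call on the deposited FPKM, though not its direction, was lost without OHT_0h library 1, 2, 3 or 4 or OHT_16h library 3 or 4 (adjusted p 0.0573 to 0.0929, log2 fold changes 0.49 to 0.55). After scaling, with all libraries, its adjusted p was 0.000564 (limma). Further lists had few calls. Of 23 glycolysis genes 3 were higher after scaling only and 1 was lower on the deposited FPKM only. Mitochondrial import (2 of 24), cytosolic chaperones (1 of 26), splicing (1 of 36) and nuclear transport (2 of 33) had members higher after scaling only. After scaling 7.6% of all genes were higher, 8.5% of those of 20 to 50 FPKM and 4.69% of those of 50 to 100 FPKM. These 2 ranges hold the median levels of the lists, and the counts were not tested against them. Among 17 Kruppel-like and Sp factors 4 were lower and 2 higher after scaling, and 2 were lower on both scales (6.43% of all genes were), Klf11 (1.92 ± 0.952 against 4.35 ± 0.649 FPKM) and Klf8 (5.23 ± 1.58 against 9.66 ± 1.52 FPKM). The first lost its call without OHT_16h library 2 (adjusted p = 0.0585, log2 fold change -0.90) and the second without OHT_0h library 1 or 3 or OHT_16h library 2 or 4 (adjusted p 0.0546 to 0.0656, log2 fold changes -0.81 to -0.69). Of 7 tested targets of the aryl hydrocarbon and oestrogen receptors, only Nqo1 (18.5 ± 4.33 against 30.7 ± 5.13 FPKM), a quinone reductase, was lower on both scales (log2 fold change -0.73), and its call but not its direction was lost without OHT_0h library 1 or 3 or OHT_16h library 2 or 4 (adjusted p 0.0516 to 0.0741, log2 fold changes -0.69 to -0.61). Of 11 host genes of small nucleolar RNAs 1 was lower on both scales, and of 5 noncoding RNAs of RNA polymerase III and RNase P or MRP 0 were called. With the 14 largest rises and 14 largest falls counted beside the list members, 102 named genes were called on the deposited FPKM. Of these, 71 kept the call without any single library, among them all of the largest rises and falls, which were chosen for large changes without overlap.

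Direct tests asked whether 16 h differed from the earlier times with OHT. The differences use no OHT_0h library, which enters only through the spread shared by the fit. With all 16 libraries 0 genes (0%) were called in 16 h against 8 h and in 16 h against 4 h, on either scale, by limma. At an unadjusted p under 0.05, 5 genes were higher and 331 lower at 16 h than at 8 h on the deposited FPKM, and 113 and 346 after scaling. Against 4 h the counts were 5 and 202, and 153 and 122 after scaling. Of the 14 largest rises, 12 had a log2 difference from 8 h above 0 after scaling, with a median of 0.27. It was 0.28 (95% interval -0.16 to 0.71) for Rgcc, 0.14 (95% interval -0.15 to 0.43) for Dusp2 and, as the largest, 0.51 (95% interval 0.01 to 1.01) for Hapln4. Of the falls, all 14 had a log2 difference from 8 h below 0 after scaling, with a median of -0.59 against 0 for all genes, as for Foxs1, -0.63 (95% interval -1.12 to -0.14), and Tmem171, -0.76 (95% interval -1.16 to -0.36). Since rises and falls were chosen by their 16 h level, these values are a description. The difference from 4 h was smaller for them (median -0.21). Btg2 differed most from 4 h, -0.72 (95% interval -0.97 to -0.46), with an adjusted p of 0.0815, and Ccng2 was at 13.3 FPKM at 4 h, 8.72 FPKM at 8 h and 7.99 FPKM at 16 h.

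**Figure D5:**
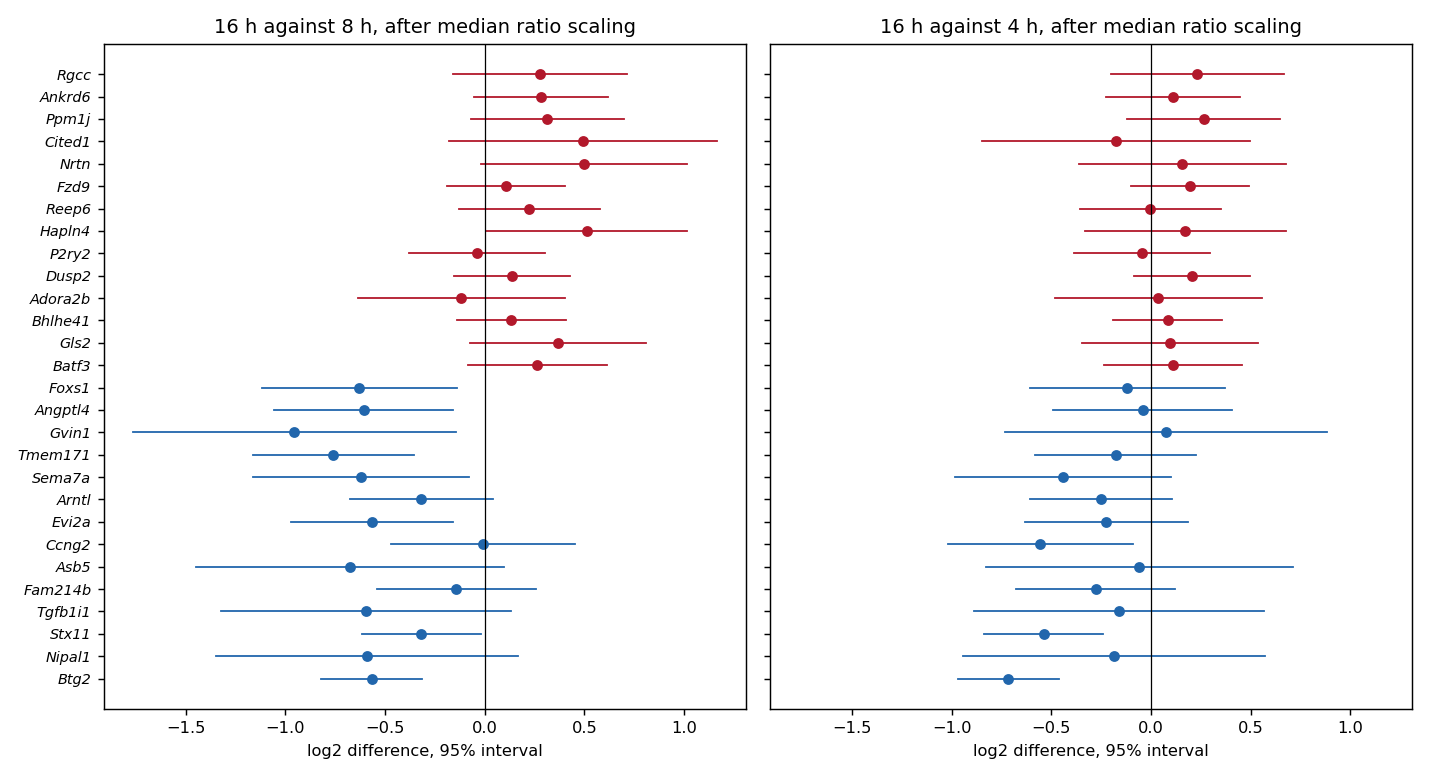
Log2 difference of 16 h from 8 h (left) and from 4 h (right) after median ratio scaling, with 95% intervals, for the 14 largest rises (red) and falls (blue). All 14 falls lie below 0 against 8 h, and the intervals of 13 of the 14 rises hold 0 against 8 h and of 14 against 4 h.

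Libraries numbered 4 stood apart at each time, and their deviations from their group means correlated with each other across genes (r = 0.33 to 0.652 on the deposited FPKM, over pairs of times). Without these 4 libraries, after median ratio scaling and with limma without trend and robust, 93 genes (0.736%) were lower and 7 (0.0554%) higher at 16 h than at 8 h. Against 4 h 35 were lower (0.277%) and 31 higher (0.245%). The largest late fall was in Gjb2, a gap junction protein also called connexin 26, by 1.01 on the log2 scale (SE 0.15, adjusted p = 0.000609). Its values were 24.2, 20.0, 20.4 and 41.8 FPKM at 0 h, 3.91, 6.43, 6.66 and 19.7 FPKM at 4 h, 19.2, 16.5, 16.6 and 12.6 FPKM at 8 h and 9.95, 4.79, 9.89 and 6.50 FPKM at 16 h. The 3 lower libraries at 4 h lay under all 8 h libraries, and library 4 at 4 h above them. Cldn1, the tight junction protein claudin 1, showed the same order, with 25.9, 26.4, 21.3 and 32.9 FPKM at 0 h, 4.92, 6.10, 6.72 and 26.9 FPKM at 4 h, 20.1, 25.3, 20.7 and 17.1 FPKM at 8 h and 14.3, 8.85, 13.0 and 4.29 FPKM at 16 h. Nfkbie (17.9, 7.82, 13.3 and 7.21 FPKM as means over the 4 times), an inhibitor of NF-kappa B, Ly96 (9.10, 6.10, 7.82 and 4.27 FPKM), a coreceptor for bacterial lipopolysaccharide, and Etv5 (11.6, 6.26, 8.58 and 4.79 FPKM), a transcription factor of the Ets family, were called too. With the libraries numbered 4 in the fit, the 2 comparisons had 0 calls on the deposited FPKM and after scaling, and at most 3 under the alternatives that kept all libraries.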

How the data were processed

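The authors deposited FPKM per gene symbol for each library, per the file headers, with 3 decimals. Per the submitters' processing notes, reads were aligned to mm9 and the tools were TopHat2 2.0.8, TopHat, SAMtools and HTSeq 0.5.3p9; annotation, strand and filters are not given in the sources used here. The files hold no counts, so depth is unknown. Of 11904 low values 18.6% lay within 5% of a whole multiple of a gene's lowest value over all libraries. Libraries of unlike depth would not share such multiples, so this share cannot give the depth.

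From these values log2(FPKM + 0.5) was tested for genes with at least 1 FPKM in 4 of the 8 libraries by limma 3.58.1 (lmFit, eBayes with trend and robust) in R 4.3.3, with the 16 total RNA fibroblast libraries in 1 fit, two-sided, with Benjamini-Hochberg adjustment over all genes and a call at an adjusted p under 0.05. Median ratio scaling used genes above 0 in all 16 libraries. Fold changes are limma coefficients, and values after ± are SD (n = 4). Tables and figures used Python 3.11.15, NumPy 2.4.6, pandas 2.3.3, SciPy 1.17.1 and Matplotlib 3.10.9, and the fit was tested on simulated data.

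Named genes are Myc, Mycn, Max and Esr1, the 14 largest rises and falls called on both scales without overlap and with a mean of at least 5 FPKM in the higher group (predicted genes, small RNAs and histones left out), and for each list up to 4 called members in each direction, ordered by adjusted p (lists without a call are shown by their most abundant member). For 16 h against 8 h or 4 h the rule named no gene. Other genes were named after their values were seen, and some genes the rule names are not reported here. The comparison, 44 gene lists and 7 marker lists were chosen with earlier results of these data known. Alternatives were other pseudocounts (0.1 and 1), no filter or 5 FPKM, array weights, quantile normalization, a limma fit with neither trend nor robust, the 2 groups alone, a replicate block, and leaving out libraries. Cyclic loess, leaving out 2 libraries together, scaling without the libraries numbered 4 and genes under 50 FPKM were added after seeing the data.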

Additional observations from a re-analysis of the deposited data

Results flagged for a closer look

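Among the genes named in the text, 11 of 250 groups of 4 libraries (4.4%) held a library farther from the others than Dixon's 95% limit, and chance flags about 1 in 20. In OHT_0h library 4, Ereg was at 51.1 FPKM, Hspd1 at 115 FPKM, Mrpl20 at 95.9 FPKM, Nanog at 6.15 FPKM and Nipal1 at 23.1 FPKM, each above the other 3 OHT_0h libraries. Nipal1 was at 9.31 to 11.4 FPKM in those 3, so its fall at 16 h starts from a mean raised by that library, and its call was kept without it. Elsewhere at 0 h, Col8a1 was low in library 2 (16.7 FPKM) and Nfil3 low in library 1 (27.8 FPKM). At 16 h, library 1 was high for Dcn (1.56 FPKM), Mxd4 (29.0 FPKM) and Nanog (6.41 FPKM), and library 2 was low for Tubb3 (44.1 FPKM), still above every OHT_0h library (at most 38.6 FPKM).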

How the results depend on the processing

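For 16 h against 0 h, 215 higher and 1004 lower genes became 960 and 944 after median ratio scaling, 986 and 1050 after quantile normalization, 938 and 1038 after cyclic loess and 486 and 1059 with array weights. Leaving out 1 library on the deposited FPKM gave 147 to 218 higher and 440 to 1890 lower genes. Leaving out OHT_16h libraries 2 and 4 together gave 366 higher and 188 lower, with fewer samples. Without the 4 libraries numbered 4, scaled values gave 1317 higher and 1323 lower genes, where limma pooled the spread over genes almost wholly, and 1159 and 1216 without trend and robust. For 16 h against 8 h these 2 fits gave 16 higher and 160 lower, and 7 and 93, and against 4 h 76 and 79, and 31 and 35. On the deposited FPKM, leaving out the libraries numbered 4 gave 9 lower genes against 8 h, and 1 higher and 2 lower against 4 h, and array weights gave 3 lower against 8 h. The cause of these moves was not tested. Apart from the replicate block described next, the other alternatives left the counts within 1.5 times, and 0 results were reversed.

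With the replicate number as a block, 335 genes were higher and 1744 lower at 16 h than at 0 h, and 1640 and 1416 after scaling, where 2 genes were lower against 8 h and 1 against 4 h. The numbers share no stated culture or day, and the deviations of same-numbered libraries at 0 and 16 h correlated by 0.178, 0.161, 0.068 and 0.504 for numbers 1 to 4, so pairing was not taken as given.

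Of the 102 named genes called on the deposited FPKM, 50 lost the call without OHT_16h libraries 2 and 4 and 2 after cyclic loess. Depth is unknown, and fold changes were narrower among abundant genes, the reason for which was not tested. A count of 0 in a list of abundant genes thus does not show that it did not change.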
